A study of Mus musculus with 14 samples.

Results

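Lung and white adipose tissue of the mouse were compared for where their transcripts end. The comparison rests on 4 of the 14 libraries of the series, 2 per tissue, chosen by their tissue label. For each tissue 1 library came from wild-type mice and 1 from mice carrying a miR-22 knockout, both of background 129S5/SvEvBrd, so the 4 groups are wild-type lung, miR-22 knockout lung, wild-type adipose and miR-22 knockout adipose. Age, the number of animals per library and whether tissues shared animals are not given in the sources used here. Total RNA of whole tissue was used, so each library mixes all cell types of the organ. The method, 3P-seq, captures and sequences the 3′ end of polyadenylated RNA. The resulting unit is the tag, 1 read assigned to a poly(A) site. The labels list no replicate of any tissue and genotype. The spread was therefore taken from what terms for tissue and genotype left over among the 4 libraries. This is 1 residual degree of freedom per site or pair, the unevenness of the tissue difference between the genotypes. It was moderated over all features, with a prior weight of 22.9 degrees of freedom for pairs, so most of the spread of a pair came from other pairs. The p-values thus set the tissue difference against that spread of these libraries, not against a spread within a tissue or between animals.

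A transcript is cut at a poly(A) site and given its tail there. Many genes carry several such sites in tandem. Cutting at the proximal site, the one nearer the start of the gene, gives a shorter 3′ end, and cutting at the distal site a longer one that can hold more binding sites for microRNAs and RNA-binding proteins. Tissues are known to differ in this choice. The microRNA removed in the knockout acts through such sites in the 3′ ends of its target transcripts. Its 2 mature strands are shown because genotype was the covariate of every comparison below; they are RefSeq sequences, tabulated with build GRCm38.p6, and capitals mark the seed, bases 2 to 8.
mmu-miR-22-3p: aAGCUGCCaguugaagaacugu
mmu-miR-22-5p: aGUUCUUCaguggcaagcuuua

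Joining same-strand intervals that overlapped or touched gave 120265 sites over the 4 libraries, of 159969 over all 14. A site was tested if it was abundant enough in at least 2 of the 4 libraries, of whichever tissue, and 18519 were. Tested sites that followed each other on a strand at a spacing of 100 to 5000 nt numbered 5614 pairs. Of these, 3129 had at least 20 tags in each of the 4 libraries and at least 5% of the pair's tags at each site in 2 or more libraries. Of the 2485 pairs not tested, 1655 fell short in an adipose library only, 257 in a lung library only and 69 in both tissues, and 504 had a site below the share minimum. Sites are named by chromosome and position in mm9, counted from 1, since the gene tables at hand are on another build. No gene is therefore named, neither tissue could be checked against marker genes, and a pair may in some cases join the ends of neighbouring genes.

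Depth differed between the tissues. Wild-type and knockout lung held 4608410 and 6010465 tags, and wild-type and knockout adipose 2852376 and 2036838. A tested pair had a median of 157 and 240 tags in the lung libraries and of 71 and 48 in the adipose libraries. The adipose libraries were also less alike. Across the 3129 pairs, which are not independent replicates, the Spearman correlation of the distal share was 0.928 between the lung libraries and 0.882 between the adipose libraries. It was also 0.882 between knockout lung and wild-type adipose, and lay between 0.783 and 0.836 for the other 3 pairings of a lung with an adipose library. By this correlation alone, wild-type and knockout adipose differed about as much as wild-type adipose and knockout lung. Depth was not equalised for it, and both adipose libraries had fewer tags per pair. For the tags of tested sites, the Spearman correlation was 0.873 within adipose and 0.595 between knockout lung and wild-type adipose.

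Lung used the distal site more. The distal share, meaning the percent of a pair's tags at its distal site, had a median of 56.7% in wild-type lung and 56.8% in knockout lung, against 50% in wild-type adipose and 50.8% in knockout adipose. The lung medians lay above both adipose medians, and the genotypes of a tissue differed by less than the tissues did. With 2 libraries against 2 an exact permutation test cannot reach 0.05, so no p is given for the medians. Pair by pair, the median difference (lung minus adipose) was 3.31 percentage points, 3.06 between the wild-type and 3.57 between the knockout libraries. In wild type 59.5% of the pairs, 1861, had the higher distal share in lung, and in knockout the number was again 1861.

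Of the 3129 tested pairs, 180 were called more distal in lung, or 5.75%, and 61 more proximal in lung, or 1.95% (edgeR quasi-likelihood test, Benjamini-Hochberg adjusted p under 0.05 over all tested pairs). At an unadjusted p under 0.05 the numbers were 536 and 202. Called pairs had large shifts: the odds of the distal site differed by a median of 7.73-fold among pairs more distal in lung and of 7.83-fold among pairs more proximal in lung, and by at least 4.05-fold in every called pair. In distal share this was a median rise of 30.7 points in the first group and a median of -31.8 points in the second. Pairs were called by a test of these same shifts, which favours large ones, so the sizes are descriptive. The major site of the pair changed between tissues in 59 of the 180 and in 23 of the 61. Smaller shifts were the rule among the rest. Both lung libraries lay above both adipose libraries in 36.3% of tested pairs, 1136, and below both in 18.8%, 588. With 2 libraries a side such separation often arises without a tissue difference, so these are not counts of shifted pairs. The counts of called pairs fell when 1 library was left out. Those fits had no genotype term and only 1 library for 1 of the tissues. Their counts therefore also reflect another model and another estimate of the spread. Without wild-type lung 1 pair was called in each direction, without knockout lung 0 and 0 (410 and 168 at an unadjusted edgeR p under 0.05), without knockout adipose 19 and 6, and without wild-type adipose 76 and 41. All 241 called pairs kept the sign of their shift when wild-type lung, knockout lung or wild-type adipose was left out, and 240 did without knockout adipose.

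**Figure D1:**
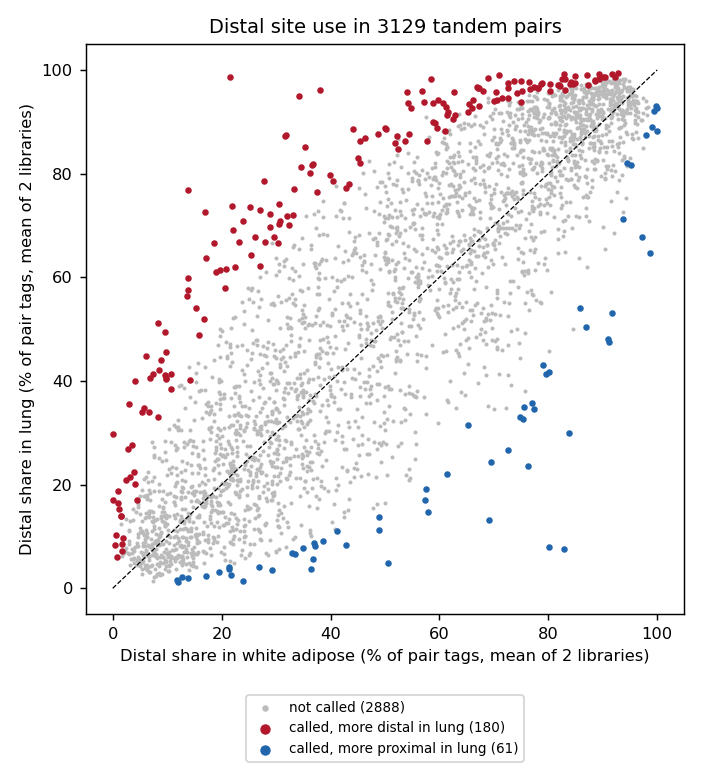
Each point is 1 of the 3129 tested pairs, with its distal share in white adipose on the x axis and in lung on the y axis, both in percent of the pair's tags and as the mean of 2 libraries. The dashed line marks equal use. The 180 pairs called more distal in lung lie above the line and outnumber the 61 called more proximal in lung below it.

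The wild-type and the knockout comparison share no library, so one can be set beside the other. Among the 475 pairs with a distal share at least 20 points higher in wild-type lung than in wild-type adipose, 378 were also higher in knockout lung than in knockout adipose, with a median of 14.7 points. Of the 223 pairs at least 20 points lower in wild-type lung, 159 were also lower in knockout, with a median of -10.7 points. Across all pairs the differences in the 2 genotypes had a Pearson r of 0.42 and a Spearman rho of 0.40. The points of this correlation are pairs, which share 4 libraries and their depth. Genotype itself gave 0 called pairs by edgeR in these 4 libraries, with 143 at an unadjusted p under 0.05.

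In the 180 pairs called more distal in lung the median distal share was 87.8% in wild-type and 82.5% in knockout lung, and 44.5% in wild-type and 34.9% in knockout adipose. In the 61 pairs called more proximal in lung it was 16% and 20% in lung and 60.9% and 71.4% in adipose. Knockout lung lay nearer the adipose mean than wild-type lung did in 132 of the 180 and in 45 of the 61, against 1554 of the 2888 pairs that were not called (53.8%). Wild-type adipose lay nearer the lung mean than knockout adipose did in 118 of the 180 and 40 of the 61, against 1644 of the uncalled pairs (56.9%). The called pairs were chosen on these same shares, so these counts are descriptive. Over all tested pairs the first count was 1731 (55.3%), and the lung medians differed little between genotypes.

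The tested pairs were divided by the spacing of their sites. Pairs 100 to under 300 nt apart had 28 of 806 called more distal in lung (3.47%) and 16 more proximal. At 300 to under 1000 nt the numbers were 55 of 1098 (5.01%) and 21, and at 1000 to 5000 nt they were 97 of 1225 (7.92%) and 24. The share called more proximal in lung stayed between 1.91% and 1.99% in the 3 classes. The median difference in distal share was 1.97, 2.92 and 4.74 points from the closest to the widest class. Median tags per pair and library were similar in the 3 classes, at 151, 139 and 135. In the widest class the medians were 56.7% and 57.7% in wild-type and knockout lung and 48.1% and 50% in wild-type and knockout adipose, with no overlap between tissues. In the closest class they were 53.3% and 52.6% in lung against 47.9% and 50% in adipose. Whether the classes differ was not tested. How many pairs of each class join the ends of neighbouring genes is not known, so the classes may differ in this too.

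**Figure D2:**
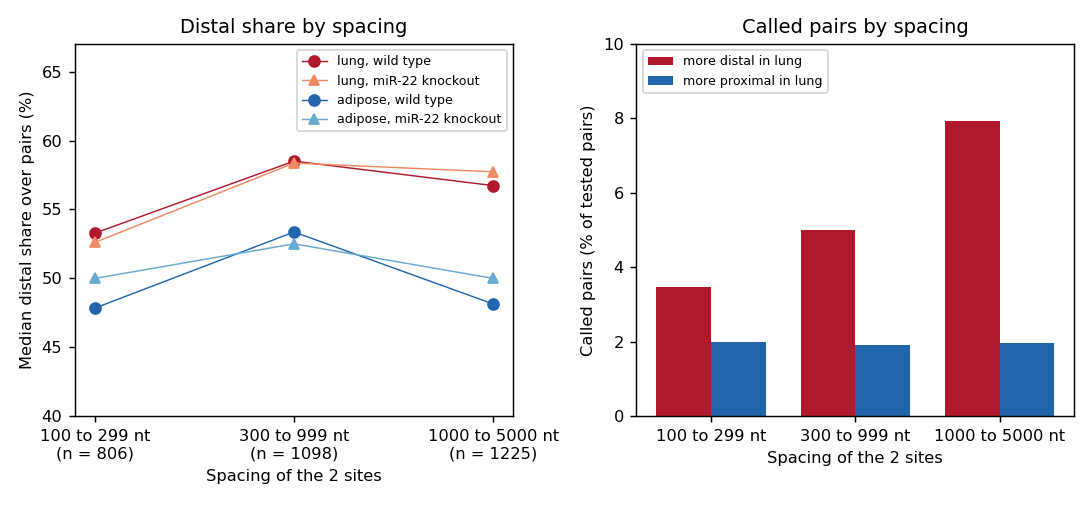
The left panel plots the median distal share (%) of each of the 4 libraries over the pairs of 3 spacing classes, and the right panel the percent of tested pairs called in each direction. Lung lies above adipose in each class, and the percent called more distal in lung goes from 3.47 in the closest to 7.92 in the widest class while the percent called more proximal stays near 1.9 to 2.

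Of 1441 pairs whose sites had no other tested neighbour within 5000 nt, 102 were called more distal in lung (7.08%) and 19 more proximal (1.32%). Of 1688 pairs that belonged to a longer row of sites, 78 (4.62%) and 42 (2.49%) were called. The median differences in distal share were 4.53 points for the lone pairs and 2.35 points for the others. The lone pairs were also spaced more widely, with a median of 881 against 587.5 nt, and whether these classes differ was not tested. In 8 cases 1 site belonged to 2 called pairs, as the distal site of one and the proximal site of the next. In 0 of the 8 did both pairs shift in the same direction, so the shared middle site gained or lost tags against both neighbours. Its counts enter both pairs, which by itself pushes their shifts in opposite directions, so this count is descriptive. Pairs were also divided into 4 classes by tag number, from 786 pairs with the fewest tags to 782 with the most. In that order, 34, 32, 41 and 73 were called more distal in lung and 6, 14, 12 and 29 more proximal. The class with the most tags had the most calls in both directions, without a steady rise before it. The median difference in distal share was between 2.89 and 3.76 points in these 4 classes. Pairs whose summed level was over 2-fold higher in lung had 43 of 495 called more distal in lung (8.69%) and 20 more proximal (4.04%). Pairs over 2-fold higher in adipose had 41 of 716 (5.73%) and 14 (1.96%), and pairs within 2-fold had 96 of 1918 (5.01%) and 27 (1.41%).

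Among pairs with at least 50 tags in every library, the widest shift toward the distal site in lung was found on the minus strand of chromosome 4, with a proximal site at 43528554 and a distal site 986 nt downstream at 43527568. The distal share was 97.1% in wild-type and 100% in knockout lung and 19.2% and 24.0% in wild-type and knockout adipose. Lung had nearly no tags at the proximal site, 2 and 0, against 63 and 38 in adipose (edgeR log2 shift in the odds 8.25, SE 1.00, adjusted p = 5.99e-05), so the fitted size rests on 2 lung tags. This pair is one in which another tissue stands out: the proximal site reached 6373 and 12377 CPM (tags scaled to library size, here over the 12 tissue libraries) in wild-type and knockout muscle, against 20.3 and 16.1 in adipose. In muscle the mean distal share was 1.18%, over 12875 and 16927 tags. In heart, liver and kidney it was 100%, but over only 2 to 15 tags per library, under the minimum of 20 used for testing. Muscle was also far above adipose at other sites, and its part in this result was not tested for the single pair. Over all pairs, 28 held a site with over 20 times the CPM in muscle that it had in adipose, and leaving them out gave 178 and 62 calls.

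On the minus strand of chromosome 7, the pair at 17502157 and 17500725 had a distal share of 92.5% and 82.2% in wild-type and knockout lung and of 45.2% and 18.5% in wild-type and knockout adipose. Its lung shares both lay above its adipose shares, which the rule for naming pairs required. The adipose genotypes also lay well apart (edgeR log2 shift 4.12, SE 0.74, adjusted p = 0.00215). The proximal site was the one called in the test of single sites, at 45.5 ± 17.5 CPM in adipose and 4.50 ± 2.99 in lung (SD, n = 2; CPM from here on scaled over the 4 libraries unless said otherwise). At chromosome 2, 131123335 and 131124922 (+), the shares were 70.2% and 77.3% in lung and 21.6% and 22.2% in adipose, the smallest gap between adipose genotypes among the 10 pairs with the widest shift in this direction (edgeR log2 shift 3.32, SE 0.76, adjusted p = 0.0105). In a much more abundant pair, at chromosome 1, 180259449 and 180259167 (-), the shares were 94.2% and 82.9% in lung, over 1191 and 1453 tags, and 55.1% and 33.1% in adipose, over 432 and 142 tags (edgeR log2 shift 3.51, SE 0.63, adjusted p = 0.00215). Both of its sites were called, the proximal one as higher in adipose and the distal one as higher in lung, so the sites differed in opposite directions.

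In other pairs the distal site was the one called. At chromosome 3, 103543740 and 103539320 (-), 4420 nt apart, the distal share was 65.9% and 57.0% in wild-type and knockout lung and 23.4% and 16.2% in adipose. The proximal site had 54.2 ± 8.39 CPM in lung and 51.2 ± 2.30 in adipose, while the distal site had 86.5 ± 9.55 CPM in lung and 12.8 ± 4.64 in adipose (SD, n = 2 each). A pair on chromosome 18, at 35750459 and 35751122 (+), had shares of 61.3% and 51.5% in lung and 14.7% and 12.7% in adipose. Its distal site was called, at 45.3 ± 9.09 CPM in lung and 13.4 ± 1.998 in adipose. Its proximal site was not called but was not level, at 34.6 ± 2.85 CPM in lung and 84.1 ± 2.49 in adipose (SD, n = 2 each). In the other 8 tissue libraries the mean share of that pair was 2.47% in heart, 8.93% in muscle, 27.5% in liver and 68.0% in kidney, so that lung was exceeded by kidney. The remaining pairs among the 10 with the widest shifts lay on chromosomes 7, 8, 9 and 10, with lung means between 57.5% and 86.3% and adipose means between 13.7% and 45.4%.

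Ranking by p in place of the size of the difference brought forward pairs with many tags and an uneven use of their sites. At chromosome 11, 87794764 and 87793027 (-), the distal share was 95.3% and 91.9% in wild-type and knockout lung, over 3224 and 2037 tags, and 56.3% and 51.9% in adipose, over 1008 and 416 tags. The lung and adipose shares were far apart beside the gaps between genotypes (edgeR log2 shift 3.69, SE 0.65, adjusted p = 0.00215). At chromosome 2, 121978606 and 121978803 (+), the distal site was minor everywhere but held 20.6% and 12.2% of the tags in lung against 0.483% and 1.28% in adipose, a 24.0-fold difference in the odds. Its CPM was 245 ± 70.0 in lung and 22.5 ± 2.75 in adipose (SD, n = 2 each). The merged sites of this pair, from 121978523 to 121978687 and from 121978689 to 121978810, nearly touched. Whether they are separate sites was not tested. At chromosome 15, 99555435 and 99558544 (+), the distal share of 13% and 7.53% in lung against 0.432% and 0.817% in adipose came with a proximal site of 3948 ± 768 CPM in adipose and 112 ± 33.5 in lung. There the distal site, at 12.1 ± 1.49 CPM in lung and 25.9 ± 15.7 in adipose, was not called, and the higher distal share of lung went with the lower level of its proximal site.

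In the opposite direction, the widest shift at that tag minimum was that of a pair on the plus strand of chromosome 6, at 133057743 and 133060914, 3171 nt apart. Its distal share was 10.3% and 5.80% in wild-type and knockout lung and 76.4% and 84.0% in adipose (edgeR log2 shift -5.52, SE 0.83, adjusted p = 0.000532). The proximal site was level between the tissues, at 11.4 ± 3.51 CPM in lung and 12.4 ± 1.47 in adipose, and the distal site had 1.07 ± 0.735 CPM in lung against 51.6 ± 11.5 in adipose (SD, n = 2 each). The other tissues were at 28.8% in heart, 25.6% in muscle, 37.8% in liver and 19.0% in kidney, so adipose was the tissue that stood apart at this pair. At chromosome 5, 92687330 and 92686685 (-), the shares were 43.9% and 52.1% in lung and 85.9% and 95.8% in adipose. Here too the proximal site was level, at 15.5 and 14.5 CPM (means of 2 libraries), and the distal site was higher in adipose, at 174 against 14.5 CPM.

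**Figure D3:**
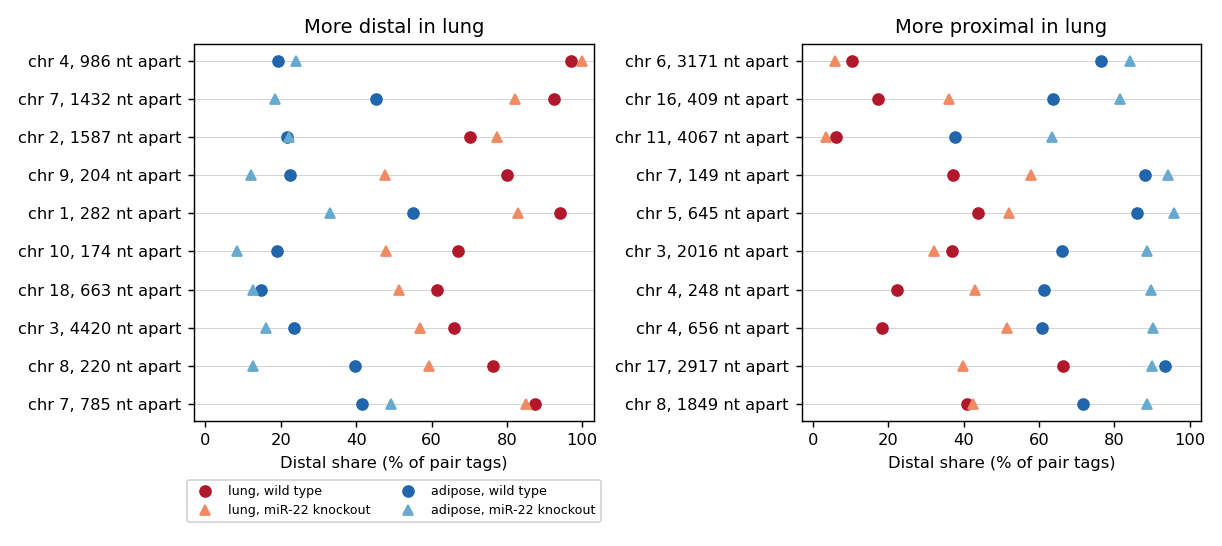
The distal share (% of pair tags) is plotted for each of the 4 libraries in the 10 pairs with the widest difference in each direction, labelled by chromosome and spacing. Pairs were chosen without overlap between tissues, and the gaps between the genotypes of a tissue differ widely from pair to pair.

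The proximal site was the one called in further pairs. At chromosome 7, 74376200 and 74376051 (-), 149 nt apart, the distal share was 37.2% and 57.9% in lung and 88.2% and 94.2% in adipose, with 98.5 CPM at the proximal site in lung against 6.56 in adipose and 86.9 against 74.9 at the distal site (means of 2 libraries). The edgeR log2 shift was -3.59 with an SE of 0.66 (adjusted p = 0.00253). The merged sites of this pair, from 74376184 to 74376264 and from 74376051 to 74376178, nearly touched. Whether they are separate sites was not tested. Of the 10 pairs with the widest shift in this direction, the one with the most tags was at chromosome 11, 120590804 and 120586737 (-), with 43983 and 62797 tags in lung and 473 and 328 in adipose. Its distal share of 6.24% and 3.46% in lung against 37.6% and 63.4% in adipose went with 8272 CPM at the proximal site in lung against 102 in adipose, and the distal site too was higher in lung, at 422 against 102 CPM. A lower distal share there did not mean fewer distal transcripts. The mean distal share of this pair was 12.1% in heart, 12.9% in muscle, 99.9% in liver and 98.9% in kidney. When scaled over the 12 tissue libraries, its proximal site had 0.315 CPM in wild-type and 0 CPM in knockout liver. Whether these sites, 4067 nt apart, end the same gene was not tested. Ranking by p at the same tag minimum added pairs with a minor proximal site. At chromosome 8, 125627006 and 125629139 (+), the distal share was 94.0% and 91.9% in lung and 99.7% in both adipose libraries. On the mitochondrial genome, where 27 pairs were tested and 3 called, the pair at 11739 and 12212 (+) had 93.5% and 90.5% in lung and 99.2% and 99.6% in adipose. Its distal site was a long run of joined intervals, from 11751 to 12607, that began close to the proximal one, from 11673 to 11739. The distal share there counts tags over that whole stretch, and whether it is 1 poly(A) site was not tested. The distal share at chromosome 11, 62417024 and 62418307 (+), was 90.2% and 86.3% in lung and 100% in both adipose libraries, which had 0 tags at the proximal site among 96 and 73.

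Which site of a pair differed was read from the test of single sites. Among the 180 pairs more distal in lung, 88 had a proximal site higher in adipose and a distal site that was not called, 62 had a distal site higher in lung and a proximal site not called, and in 21 the sites were called in opposite directions. Of the remaining 9, both sites were higher in adipose in 3, both higher in lung in 1, and neither was called in 5. Among the 61 pairs more proximal in lung, the proximal site alone was higher in lung in 25, the distal site alone was higher in adipose in 23, and 6 had opposite calls. The balance between the first 2 kinds depends on the scaling of the libraries. With total counts in place of TMM, a scaling factor that trims extreme sites, the median log2 difference over all sites rose by 0.52, and single sites by differing amounts. The 88 and 62 then became 64 and 92. The distal shares themselves do not depend on scaling. In whole tissue, fewer cells of a type and less RNA per cell cannot be told apart.

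The 8 libraries of the other tissues, which took no part in choosing the pairs, place lung and adipose on a wider scale. Of the 180 pairs, 104 had at least 20 tags in each of those libraries. Their median distal share was 84.0% and 77.9% in wild-type and knockout lung, 68.0% and 67.9% in kidney, 67.7% and 69.2% in liver, 57.0% and 58.1% in heart. Muscle followed with 50.5% and 49.6% and adipose with 43.8% and 32.5%. Lung and adipose lay at the ends, where the choice of the pairs put them, and the other 4 tissues lay between in this set. The mean of those 4 was nearer to lung in 56 of the 104 pairs and nearer to adipose in 48. Of the 61 pairs more proximal in lung, 40 were covered. Their medians were 18.3% and 30.4% in lung, 31.9% and 39.3% in kidney, 40.3% and 37.8% in liver, 36.4% and 43.3% in heart. Muscle had 56.1% and 64.0% and adipose 62.5% and 79.3%, so knockout muscle lay above wild-type adipose. The 4 other tissues were nearer to lung in 25 and nearer to adipose in 15. Over the 1695 covered pairs of all kinds, lung had the highest medians, 57.3% and 56.4%, adipose the lowest, 48.6% and 50%, and the 8 other libraries lay between 50.9% and 55.3%. Muscle was the nearest to adipose of the 4 in both called sets.

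**Figure D4:**
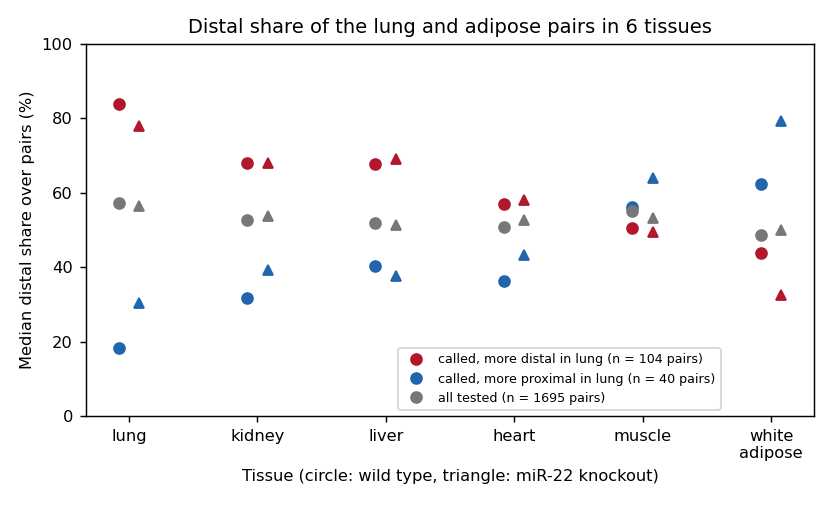
Points show the median distal share (%) in each wild-type (circle) and knockout (triangle) library of 6 tissues, over the pairs called more distal in lung, the pairs called more proximal in lung and all tested pairs with at least 20 tags in every tissue library. Lung is at one end of both called sets and adipose at the other, except that knockout muscle (64.0%) lies above wild-type adipose (62.5%) in the pairs called more proximal in lung.

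Site abundance was tested over a wider set than site choice. A site had to be abundant in only 2 of the 4 libraries, while a pair needed at least 20 tags in each of them. The shares called in the sets are therefore not comparable. Of 18519 tested sites, 3526 were higher in lung (19% of those tested) and 3313 higher in adipose (17.9%), where a call needed an edgeR adjusted p under 0.05 and a fitted difference of 2-fold or more. With total-count scaling the numbers were 5154 and 2171, so the share of calls that were higher in lung went from 51.6% to 70.4%. DESeq2 called 1837 and 1571. The sites called higher in lung held 38.5% and 35.3% of tested tags in wild-type and knockout lung and 4.24% and 3.24% in adipose. Those called higher in adipose held 54.8% and 57.4% of tags in adipose and 8.19% and 10.3% in lung. The Spearman correlation of site tags between a lung and an adipose library was between 0.506 and 0.595, against 0.918 within lung and 0.873 within adipose.

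The leading lung sites had 0 tags in both adipose libraries. The first was on the minus strand of chromosome 19, at 9158111 to 9158301, with 58692 tags in wild-type and 38681 in knockout lung, or 8496 ± 4483 CPM (SD, n = 2). Against a floor of 3 tags over both adipose libraries, or 0.767 CPM, it was at least 11073-fold higher in lung. A site upstream on the same strand, at 9159666 to 9159868, had 9690 and 5392 tags in lung and was again listed in neither adipose library. Next was chromosome 14, 70920739 to 70920918 (-), with 43968 and 34221 tags in lung and at least an 8765-fold difference. Another run of neighbours lay on the plus strand of chromosome 14, where the sites at 41947574 to 41947782 and 41948317 to 41948724 had 22944 and 27512, and 14051 and 13620 tags in lung. Such runs could not be tested for site choice, since adipose had no tags at them. The 8 leading sites were between at least 1604-fold and at least 11073-fold higher in lung. In all, 416 tested sites had 0 tags in both adipose libraries and 65 had 0 in both lung libraries. Among the 8 other tissue libraries, the wild-type heart library had the highest level at each of the 8 leading lung sites, between 25.3 and 398 CPM when scaled over the 12 tissue libraries. On that scale lung held 8394 CPM (wild type) and 3856 CPM (knockout) at the first of them.

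**Figure D5:**
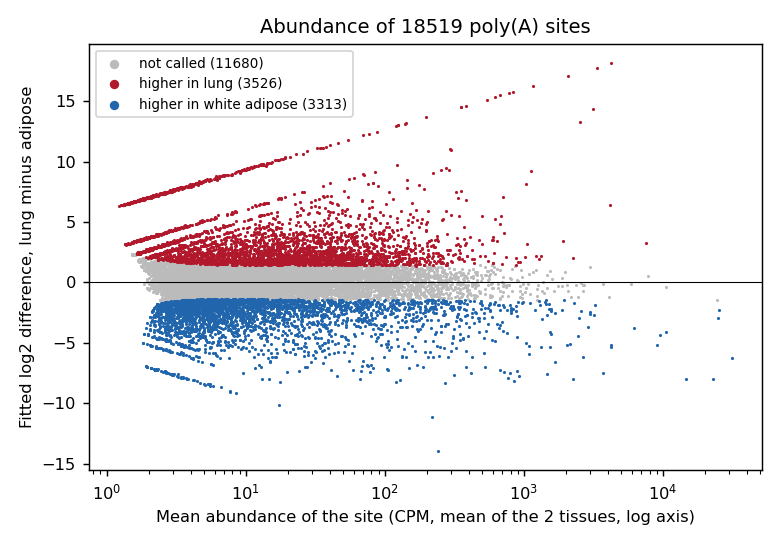
Each point is 1 of the 18519 tested sites, with its mean CPM over the tissues on the x axis (log scale) and the fitted log2 difference between lung and adipose on the y axis. Sites higher in lung (3526) and in white adipose (3313) are coloured, and the upper and lower bands of points are sites with few or 0 tags in 1 tissue, whose fitted difference has no fixed size.

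Adipose was led by sites of another kind. The site at chromosome 11, 67073911 to 67073941 (+), had 1022 and 841 tags in wild-type and knockout adipose and 0 in lung, and that at chromosome 15, 78021862 to 78021940 (-), had 892 and 803 tags in adipose and 1 in each lung library. Their levels in adipose were 480 ± 31.7 and 439 ± 56.8 CPM (SD, n = 2 each). Scaled over the 12 tissue libraries, muscle held 123396 CPM (wild type) and 119112 CPM (knockout) at the first site, against 329 and 356 in adipose. On that scale the second had 123208 and 87087 CPM in muscle against 287 and 340 in adipose. Of 314 tested sites over 20 times higher in muscle than in adipose, 35 were called higher in adipose than in lung (11.15%) and 170 higher in lung (54.1%). The shares over all tested sites were 17.9% and 19%. The 314 sites were picked by adipose values that the calls also use. A low adipose level itself favours a call of higher in lung, so the difference in these shares is not a result. Leaving all 314 out gave 3364 sites higher in lung and 3258 higher in adipose. The part of muscle RNA in the adipose libraries was not tested. The most abundant of the 8 leading adipose sites was at chromosome 10, 79355232 to 79355418 (+). Adipose was at 33994 (wild type) and 56560 CPM (knockout) and lung at 72.4 (wild type) and 395 CPM (knockout). At chromosome 11, 101200658 to 101200762 (+), the values were 2283 and 1108 CPM in adipose and 1.19 and 15.8 in lung, and at chromosome 8, 3659712 to 3659816 (+), they were 396 and 680 in adipose and 0.994 and 2.48 in lung. At the 6 leading adipose sites whose level in muscle was below that in adipose, knockout lung was above wild-type lung each time. Over all 3313 sites called higher in adipose, 1957 (59.1%) were higher in knockout than in wild-type lung, against 5890 of the 11680 sites not called (50.4%). Of the 3526 sites higher in lung, 1450 (41.1%) were. Adipose showed the same lean: knockout was above wild-type adipose at 2007 of the sites higher in adipose (60.6%), 1517 of those higher in lung (43.0%) and 5837 of those not called (50%). The called sites were chosen on these same values, so these counts are descriptive.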

How the data were processed

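The 4 lung and white adipose 3P-seq libraries were analysed, with the other 10 as context. The submitters' processing notes list CASAVA 1.7, Bowtie and build mm9; the Bowtie version, and the rule that made sites of reads, are not stated there. Values deposited by the authors are unscaled estimated counts of tags per site, of which 1.64% to 5.79% in these 4 libraries are not whole numbers. Per the file headers an offset of 1 applies to the drawn track; it was not applied, so positions may differ by 1 nt. Intervals were merged, values summed per site and rounded, and the 3′ end of the interval with the most tags gave the position. Spacing was measured between these positions, so the merged sites of a pair can lie closer together than their spacing. The floor of 3 tags covers counting error only, since PCR copies cannot be told from separate molecules.

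Tests used edgeR 4.0.16 in R 4.3.3 over all features: filterByExpr (minimum count 10, tissue as group), TMM and terms for tissue and genotype for sites; for pairs a term per library, distal, distal-by-tissue and distal-by-genotype, leaving 1 residual degree of freedom per feature, moderated over all features. Between 95.6% and 96.8% of a library's tags lay on tested sites. The common biological coefficient of variation was 0.35 for sites and 0.30 for pairs. SE is the fitted difference divided by the square root of its F statistic. The steps were tested on simulated counts.

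Named pairs are, per direction, up to 10 called pairs with the largest difference in mean distal share and 5 with the smallest p, at 50 or more tags in each library, without overlap between tissues and sharing no site; named sites are the 8 largest called differences per direction at 50 CPM or more. Only some are printed in full. The comparison, rules and alternatives were chosen with earlier results of these data known. Alternatives were DESeq2 1.42.0, other scaling, filters, spacing, merging and depth, a spread from 12 libraries, no genotype term, and each library left out.
Lists of cell type markers and of 3′ end processing factors could not be applied, because sites were not matched to genes.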

Additional observations from a re-analysis of the deposited data

How the results depend on the processing

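The main calls were 180 pairs more distal and 61 more proximal in lung, a median difference in distal share of 3.31 points, and 3526 and 3313 sites higher in lung and in adipose. Pairs more distal in lung outnumbered the others under every alternative that called more than 1 in a direction. Taking the spread from 12 tissue libraries gave 339 and 120 pairs. A minimum of 100 tags per pair and library left 561 pairs with 30 and 8 called and a median of 2.81 points, while a site minimum of 1% gave 258 and 101 pairs and 2.24 points, and 10% gave 3.80 points. With no filter on low counts, minor sites became neighbours, 1487 pairs were tested, 52 and 38 were called (57.8% more distal) and the median was 0.965 points. Spacing of 100 to 1000 nt gave 108 and 60 pairs, so 64.3% of calls were more distal in lung against 74.7%, and 2.42 points, and thinning to the smallest library 125 and 48 pairs and 3.86 points. Leaving out 1 library, without the genotype term, gave between 0 and 76 pairs more distal and 0 and 41 more proximal (19 and 6 without knockout adipose), medians between 3.16 and 3.70 points, and between 2667 and 2974 sites higher in lung and 2498 and 2938 higher in adipose. For sites, DESeq2 gave 1837 and 1571, total-count scaling 5154 and 2171, a filter of at least 1 tag in 2 libraries 5579 and 2365 (70.2% higher in lung against 51.6%), a 4-fold minimum 2516 and 2125, and thinning 2347 and 2231. The causes were not tested. No named pair or site changed sign. All 30 named pairs stayed called with DESeq2 and with the 12-library spread and 29 without the genotype term, but 0 did without knockout lung, 1 without wild-type lung, 9 without knockout adipose and 26 without wild-type adipose; all 16 named sites stayed called. No paired analysis was possible because the labels carry no replicate numbers beyond genotype, which is a term of the model. Limits are the depth of adipose, whose pairs had a median of 48 tags in knockout, and the single library per group.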
